A study of Mus musculus with 31 samples.

Results

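The homeostatic astrocyte transcripts are a list of 31 genes with which resting astrocytes are recognised, and they were found by gene name among the 55401 genes of the count tables, where all 31 were present. The list was read in mouse brain RNA in 2 ways, as the astrocyte signal of cortex tissue and as astrocyte RNA carried over into preparations of CD11b+ microglia. RNA-seq libraries were made from 9 samples of temporo-occipital cortex and from 22 samples of CD11b+ cells, which magnetic beads had pulled from dissociated whole brain. All mice were 13 months old and on the C57BL/6J background. A+ mice carried the APPswe/PS1dE9 transgene, which drives a chimeric mouse and human APP with the Swedish mutations and a human presenilin lacking an exon from the mouse prion protein promoter, and A- mice lacked it. Pki/ki mice were homozygous for the PLCγ2-P522R knock-in (KI), made by CRISPR/Cas9 editing, and Pwt/wt mice carried the unedited gene. The cortex libraries came from females only, with 4 A+/Pki/ki, 4 A+/Pwt/wt and 1 A-/Pwt/wt mouse. The CD11b+ libraries came from 4 A+/Pki/ki, 4 A+/Pwt/wt and 7 A-/Pwt/wt females and from 4 A-/Pki/ki and 3 A-/Pwt/wt males. Mouse number 236 is given to a cortex library labelled A+/Pwt/wt and to a CD11b+ library labelled A-/Pwt/wt, and both labels were used as given.

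Astrocytes clear glutamate and GABA from synapses, turn glutamate into glutamine, buffer potassium and water through channels at their endfeet, and are joined to each other by gap junctions. Their resting transcripts cover these tasks, and most of them are made at far lower levels in microglia, so that their reads in a microglial preparation can serve to trace astrocyte material. A few of the 31 are not restricted to astrocytes. S100b, a calcium-binding protein, and Glul, glutamine synthetase, are also known from oligodendrocytes, and Glul is also made by macrophages.

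Library totals were 25226544 to 43129427 counts in cortex and 16229831 to 25118180 counts in CD11b+ samples. The labels were checked against other cells' markers. A list of 20 homeostatic microglial genes took 2.44% to 7.65% of counts in CD11b+ libraries and 0.201% to 0.353% in cortex. App, which the transgene adds to, stood at 3238 to 3955 CPM in the 8 A+ cortex libraries and at 1903 CPM in the A- cortex library. In CD11b+ females it stood at 617 to 975 CPM in A-/Pwt/wt, 664.5 to 1033 in A+/Pwt/wt and 529 to 958 in A+/Pki/ki libraries. These ranges overlapped, so App gave no check of the transgene labels there. CPM are counts scaled to library size, with sizes adjusted by the trimmed mean of M-values (TMM). Mitochondrial genes took 3.45% to 24.5% of counts in CD11b+ libraries, the highest being the A-/Pwt/wt female 223, and 4.02% to 5.58% in cortex.

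The stretches of 250 bases upstream of the start site are shown for 4 members whose levels separate the list, Glul and S100b, which stayed high in CD11b+ libraries, and Slc1a3 and Gpr37l1, which were at 46.6% and 32.5% of their cortex level there in A+/Pwt/wt females. They are from RefSeq on GRCm38.p6, at chr1:153899679-153899928 (plus strand), chr10:76253586-76253835 (plus strand), chr15:8710808-8711057 (minus strand) and chr1:135167682-135167931 (minus strand), and are written in the direction of transcription. Capitals mark matches on either strand to CCAAT (the CCAAT box), GGGCGG (the GC box), TATAAA (the TATA box) and TTGGCA (part of the nuclear factor I site). The one TTGGCA match in S100b overlaps a CCAAT match on the other strand.
Glul: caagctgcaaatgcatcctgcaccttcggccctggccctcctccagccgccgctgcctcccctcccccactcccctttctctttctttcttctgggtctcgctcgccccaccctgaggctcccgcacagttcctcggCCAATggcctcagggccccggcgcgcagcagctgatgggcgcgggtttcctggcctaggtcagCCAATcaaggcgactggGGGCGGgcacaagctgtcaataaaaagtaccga
S100b: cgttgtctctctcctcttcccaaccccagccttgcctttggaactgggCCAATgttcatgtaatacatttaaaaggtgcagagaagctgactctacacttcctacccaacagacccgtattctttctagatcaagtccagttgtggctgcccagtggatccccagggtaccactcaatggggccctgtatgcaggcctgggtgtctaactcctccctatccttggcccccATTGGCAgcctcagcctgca
Slc1a3: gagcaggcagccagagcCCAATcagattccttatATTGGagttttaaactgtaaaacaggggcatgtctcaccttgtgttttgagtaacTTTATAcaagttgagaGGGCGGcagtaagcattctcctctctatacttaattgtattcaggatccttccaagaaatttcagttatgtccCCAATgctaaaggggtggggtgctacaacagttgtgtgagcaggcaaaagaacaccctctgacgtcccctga
Gpr37l1: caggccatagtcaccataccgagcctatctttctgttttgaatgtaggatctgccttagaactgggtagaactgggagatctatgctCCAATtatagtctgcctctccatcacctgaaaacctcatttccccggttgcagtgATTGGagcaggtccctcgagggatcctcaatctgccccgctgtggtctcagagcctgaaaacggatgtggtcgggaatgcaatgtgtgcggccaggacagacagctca

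RefSeq promoters were used for 25 of the 31 members, and Sox9, Cpe, Atp1b2, Sparcl1 and Chrdl1 had none. Promoters on chromosome 18, where Aqp4 lies, were left out for the members but not for the whole set. Aqp4 was thus not read. A CCAAT match lay in this window in 12 of the 25 members (48.0%) and in 33.8% of the 32851 promoters of the table. GGGCGG was found in 13 members (52.0%) and in 32.7% of all promoters. TATAAA was found in 3 members, Dio2, Ndrg2 and Slc1a3, and in 12.4% of all promoters. TTGGCA was found in 2 members, Hepacam and S100b, and in 12.3% of all promoters. A member was counted once if any of its promoters matched, while the whole set was counted promoter by promoter. The percentages of members and of all promoters are thus not in like units. These are matches of letters and not binding sites.

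In cortex the 31 transcripts summed to 1.17% to 1.38% of all counts. In CD11b+ libraries they summed to 0.251% to 0.892%, so that no CD11b+ library reached the lowest cortex library. A score was taken for each library as the mean log2 CPM over the 31 members. It was 7.34 ± 0.060 (SD, n = 4) in A+/Pwt/wt cortex, 7.40 ± 0.090 (SD, n = 4) in A+/Pki/ki cortex and 7.23 in the 1 A-/Pwt/wt cortex. In CD11b+ females it was 6.09 ± 0.78 (SD, n = 7) in A-/Pwt/wt, 6.07 ± 0.63 (SD, n = 4) in A+/Pwt/wt and 5.22 ± 1.07 (SD, n = 4) in A+/Pki/ki mice. In CD11b+ males it was 5.23 ± 0.23 (SD, n = 3) in A-/Pwt/wt and 6.38 ± 0.42 (SD, n = 4) in A-/Pki/ki mice. The SD between mice of one genotype was thus 0.63 or more in CD11b+ females and 0.090 or less in cortex. In such bulk samples, fewer cells of a type and less RNA per cell cannot be told apart.

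**Figure D1:**
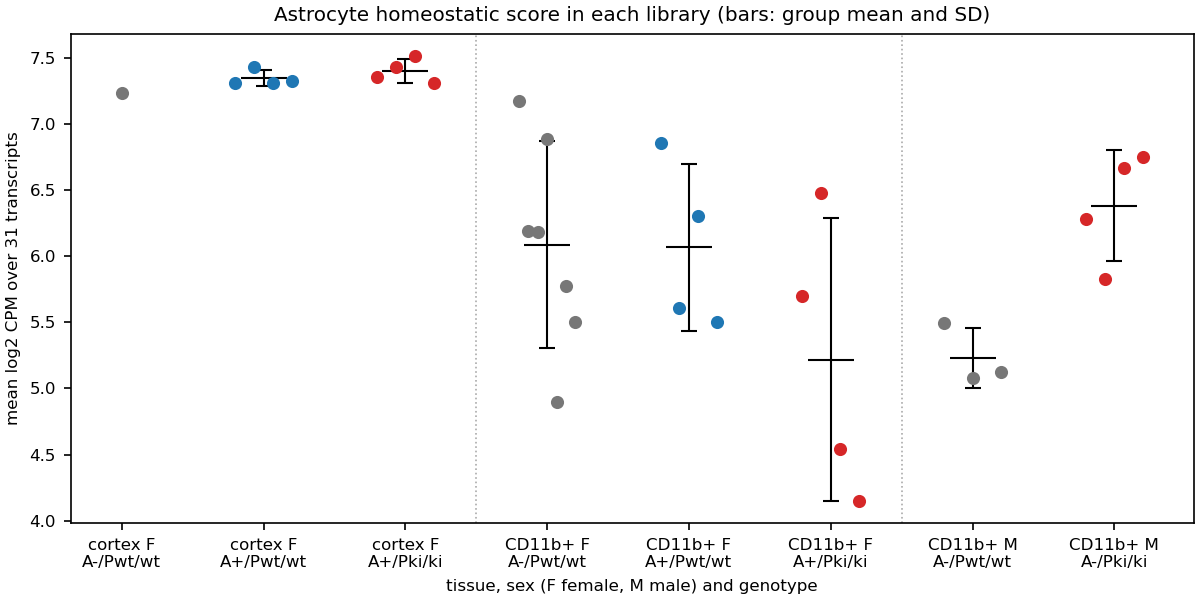
Score of the 31 astrocyte homeostatic transcripts (mean log2 CPM, vertical axis) in each library, by tissue, sex and genotype; points are mice, horizontal bars are group means and vertical bars are SD, and cortex, female CD11b+ and male CD11b+ libraries were scaled separately. Cortex libraries lie between 7.23 and 7.51, and CD11b+ libraries between 4.15 and 7.17.

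The transmitter genes differed widely in how far their levels in the 2 tissues lay apart. Slc1a2, the main glutamate transporter of the forebrain (GLT-1), ranged from 2069 to 2948 CPM over the 9 cortex libraries, from 136 to 1357 CPM in CD11b+ females and from 202 to 912 CPM in CD11b+ males. Slc1a3, the glutamate transporter GLAST, ranged from 449 to 616 CPM in cortex, from 123 to 455 CPM in CD11b+ females and from 138 to 326 CPM in CD11b+ males. These ranges were scaled within each table, so whether a member reached its cortex range was read on library totals. On that scale neither Slc1a2 nor Slc1a3 did so in any of the 22 CD11b+ libraries. Of the 31 members, 8 did so in at least 1 library, namely S100b and Glul in 20 libraries each, Slc7a10 in 9, Slc6a11 and Kcnj10 in 8 each, Timp4 in 4, Ndrg2 in 2 and Sparcl1 in 1. With the scaling within tables the number of members was 15. Slc6a11, the GABA transporter GAT-3, ranged from 137 to 183 CPM in cortex and from 30.7 to 370 CPM in CD11b+ females. Slc7a10, a carrier of D-serine and small neutral amino acids, ranged from 17.2 to 24.4 CPM in cortex and from 2.32 to 34.0 CPM in CD11b+ females. The CD11b+ ranges of both genes thus lay on either side of their cortex range. Glul had similar levels throughout, with 1230 to 1672 CPM in cortex, 1165 to 2111 CPM in CD11b+ females and 1443 to 2013 CPM in CD11b+ males.

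Channels, pumps and contact proteins were the largest role, with 9 members. Aqp4, the water channel of astrocytic endfeet, ranged from 112 to 170 CPM in cortex and from 10.6 to 94.5 CPM in CD11b+ females. Gja1 and Gjb6 encode the gap junction proteins connexin 43 and connexin 30. Gja1 ranged from 142 to 187 CPM in cortex and from 11.5 to 143 CPM in CD11b+ females, and Gjb6 from 34.9 to 55.7 CPM and from 3.82 to 41.2 CPM. Mlc1 and Hepacam, which form a complex at astrocyte junctions, ranged from 157 to 205 CPM and from 90.3 to 110 CPM in cortex. In CD11b+ females they fell to as little as 14.1 CPM (Mlc1) and 6.03 CPM (Hepacam). Kcnj10, the potassium channel Kir4.1, which oligodendrocytes also make, was the one of the 9 whose CD11b+ levels surrounded its cortex range, with 56.2 to 311 CPM in CD11b+ females and 143 to 193 CPM in cortex. The remaining 3 were Atp1b2, a sodium pump subunit (533 to 654 CPM in cortex, 59.2 to 452 CPM in CD11b+ females), Slc4a4, a sodium bicarbonate cotransporter (144 to 201 and 17.7 to 171 CPM), and the claudin Cldn10 (21.03 to 31.5 and 1.31 to 22.8 CPM).

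Among the enzymes, Aldh1l1, the folate enzyme used as a pan-astrocyte marker, was the steadiest member in cortex, where its highest library was 1.16 times its lowest (57.9 to 67.3 CPM). In CD11b+ females it ranged from 6.52 to 48.2 CPM, a 7.39-fold range. Acsbg1, an acyl-CoA synthetase, ranged from 156 to 195 CPM in cortex and from 13.8 to 155 CPM in CD11b+ females. Dio2, which converts thyroxine to active thyroid hormone, ranged from 45.5 to 63.9 CPM and from 4.16 to 29.0 CPM, and Plpp3, a lipid phosphate phosphatase, from 243 to 321 CPM and from 22.1 to 193 CPM. All 4 enzymes were thus below their cortex range in every CD11b+ library.

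Of the receptor and signalling genes, S100b went the other way, with 120 to 190 CPM in cortex, 65.3 to 792 CPM in CD11b+ females and 201 to 551 CPM in CD11b+ males. Gpr37l1, an astrocytic G protein-coupled receptor, ranged from 195 to 266 CPM in cortex and from 12.3 to 162 CPM in CD11b+ females. Ntsr2, a neurotensin receptor, ranged from 118 to 183 CPM and from 11.3 to 116 CPM in the same order. Fgfr3, a receptor for fibroblast growth factors, ranged from 95.9 to 125 CPM in cortex and from 12.2 to 118 CPM in CD11b+ females, Ndrg2 from 693 to 935 CPM and from 99.7 to 907 CPM, and F3, tissue factor, from 30.7 to 42.9 CPM and from 4.38 to 30.9 CPM. Sox9, the transcription factor of astrocyte nuclei, ranged from 36.8 to 53.9 CPM and from 2.66 to 27.6 CPM.

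Secreted and processing proteins included 2 of the most abundant members. Cpe, carboxypeptidase E, ranged from 2004 to 2573 CPM in cortex and from 140 to 1232 CPM in CD11b+ females, and Sparcl1, the matrix protein hevin, from 1413 to 1672 CPM and from 226 to 1502 CPM. Cpe and hevin are also made by other brain cells, neurons among them. Htra1, a secreted serine protease, ranged from 155 to 205 CPM in cortex and from 9.97 to 93.3 CPM in CD11b+ females. Timp4, an inhibitor of metalloproteinases, ranged from 29.4 to 41.4 CPM and from 3.31 to 53.8 CPM, and Mfge8, a bridge for phagocytosis, from 184 to 250 CPM and from 69.9 to 155 CPM. Chrdl1, a BMP antagonist that matures synapses, was the rarest, at 15.3 to 18.8 CPM in cortex and 0.429 to 7.28 CPM in CD11b+ females, with as few as 7 counts in a CD11b+ library. Per kilobase of exon, the order of the members also differed between the tissues. Cpe stood first in A+/Pwt/wt cortex with a mean of 842 CPM per kilobase, ahead of Sparcl1 with 523 and Glul with 415. In A+/Pwt/wt CD11b+ libraries Glul stood first with 426 CPM per kilobase, ahead of Sparcl1 with 310 and Cpe with 243.

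The level in CD11b+ libraries was then set against cortex of the same genotype, as the ratio of mean CPM on library totals. The 2 tissues came from separate libraries, brain regions and, by their labels, mostly separate mice, so the ratio is a description with no test. In A+/Pwt/wt females the median member stood at 40.3% of its cortex level, in A-/Pwt/wt females at 46.3% and in A+/Pki/ki females at 23.0%. Of the defining astrocyte markers in A+/Pwt/wt females, Slc1a2 stood at 23.9% of cortex, Gja1 at 33.5%, Aqp4 at 34.9% and Aldh1l1 at 42.5%. The lowest was Chrdl1 with 11.7%, followed by Htra1 with 23.3%. The highest were S100b with 205%, Glul with 101%, Kcnj10 with 95.6% and Slc6a11 with 94.1%. S100b stayed above 100% in all 3 genotypes (341% in A-/Pwt/wt, 139% in A+/Pki/ki). In A+/Pwt/wt females the 31 members thus spread from 11.7% to 205%. The A-/Pwt/wt ratios rest on 1 cortex library.

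**Figure D2:**
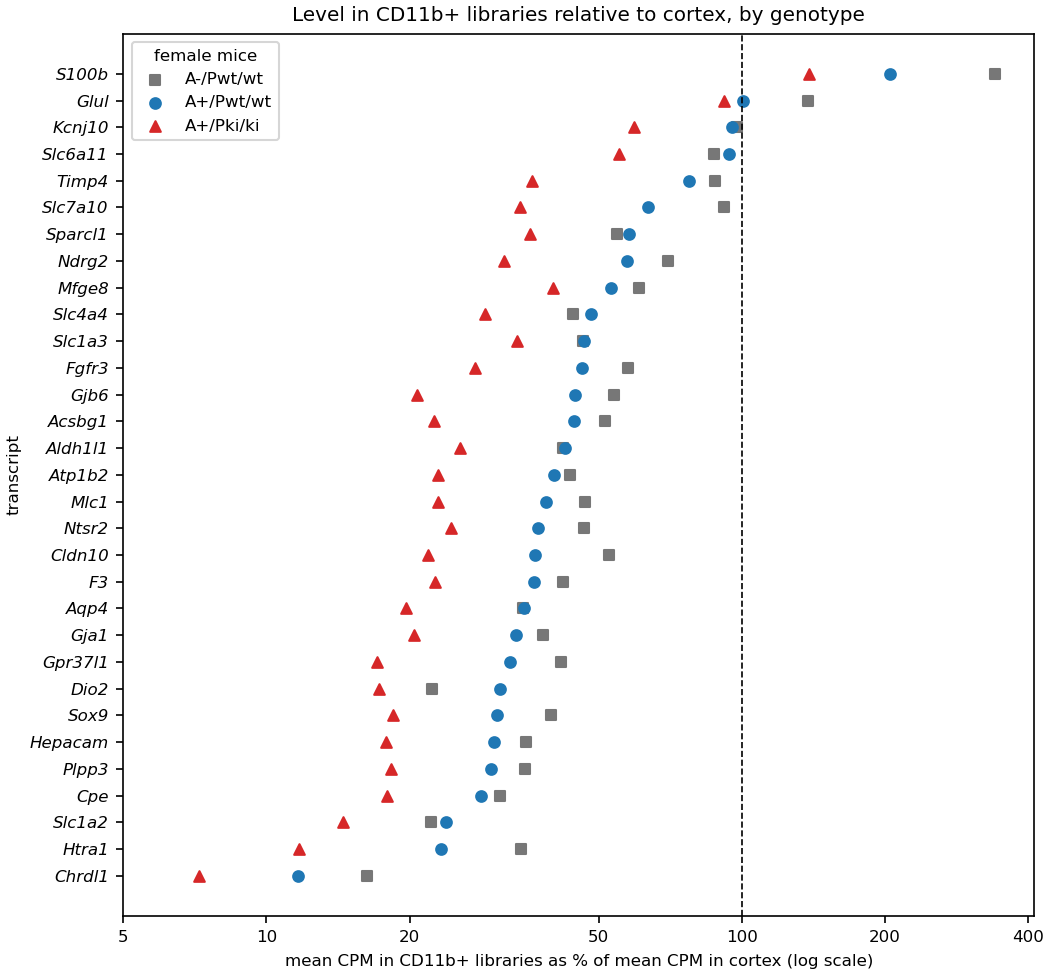
Mean CPM of each of the 31 transcripts in CD11b+ libraries as a percent of its mean CPM in cortex of the same genotype (log scale; CPM on library totals), in female mice; the dashed line is 100%. S100b lies right of the line in all 3 genotypes, and Chrdl1 is furthest left, at 7.20% in A+/Pki/ki and 11.7% in A+/Pwt/wt mice.

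Glul accordingly took a varying part of the list's reads. It made up 10.2% to 12.2% of the summed member counts in cortex and 19.0% to 49.6% in CD11b+ libraries. The largest parts, 49.6% and 49.3%, were in the A+/Pki/ki females 394 and 405, the 2 libraries with the lowest astrocyte scores. Without Glul the other 30 members took 1.03% to 1.21% of counts in cortex and 0.127% to 0.723% in CD11b+ libraries. S100b added 1.02% to 1.53% of the member counts in cortex and 2.19% to 8.29% in CD11b+ libraries. Oligodendrocyte genes (16 genes, with Mog and Mag among them) took 0.446% to 0.746% of counts in cortex and 0.919% to 5.95% in CD11b+ libraries. Their score, which weights all 16 genes alike, was 6.17 to 6.92 in cortex and 4.11 to 7.06 in CD11b+ libraries, scaled separately. The part of oligodendrocyte RNA in the S100b and Glul levels was not tested.

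Over the 15 CD11b+ libraries of females, the 31 transcripts rose and fell largely together. For the 30 members with more than 10 counts in the lowest library, the highest library was 1.81 to 17.4 times the lowest, with a median of 9.63. The lowest of the 15 libraries was the A+/Pki/ki female 405 for 26 members, the A+/Pki/ki female 394 for 4 and the A+/Pwt/wt female 380 for 1. The highest was the A-/Pwt/wt female 223 for 21 members, the A-/Pwt/wt female 236 for 7 and the A+/Pwt/wt female 331 for 3. Glul (1.81-fold), Mfge8 (2.22-fold) and Slc1a3 (3.70-fold) had the narrowest ranges, and Cldn10 (17.4-fold) and Timp4 (16.3-fold) the widest. In the 9 cortex libraries the same ratio of highest to lowest was 1.16 to 1.60, with a median of 1.36 over the 31 members. The 7 male CD11b+ libraries lay between, with a median of 3.31.

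**Figure D3:**
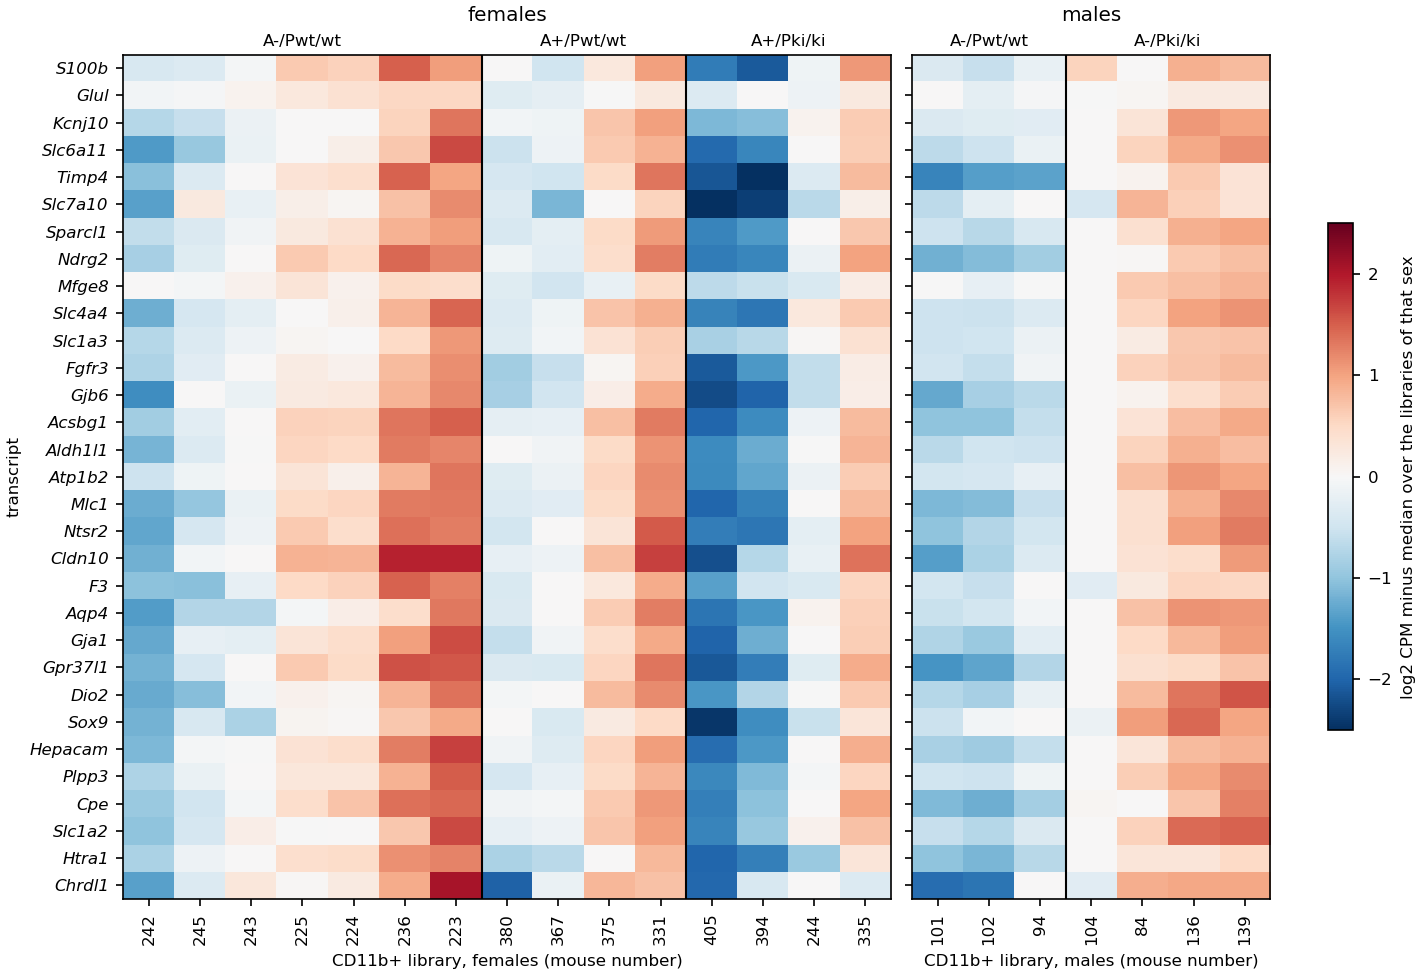
Log2 CPM of the 31 transcripts (rows, ordered by their CD11b+ to cortex ratio) in each CD11b+ library (columns, by genotype and then by astrocyte score) minus the median of that transcript over the libraries of the same sex; red is above and blue below that median. The A+/Pki/ki females 405 and 394 are low in nearly all rows, the A-/Pwt/wt females 223 and 236 are high, and the Glul row changes least.

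The libraries at the extremes also stood apart for other cells' transcripts. The A-/Pwt/wt female 223, with the highest astrocyte score (7.17), also had the highest score for 22 neuronal genes (6.64) and for oligodendrocyte genes (7.06) and the lowest for homeostatic microglial genes (9.96). The A+/Pki/ki female 405, with the lowest astrocyte score (4.15), had the lowest neuronal (2.53) and oligodendrocyte (4.11) scores of the females and the highest microglial score among them (10.98). Between these extremes the order differed from list to list. The A+/Pwt/wt female 331 had a higher astrocyte score than the A+/Pki/ki female 335 (6.85 against 6.48) but lower neuronal (5.26 against 5.65) and oligodendrocyte (6.30 against 6.67) scores. Endothelial scores were 7.69 in female 223 and 7.90 in female 331. The share of each list was also set against cortex. Neuronal genes had a median share of 0.119% in CD11b+ libraries and 2.08% in cortex, the 31 astrocyte genes 0.539% and 1.23%, and oligodendrocyte genes 3.69% and 0.542%. For oligodendrocyte genes the score ran the other way from the share, with group means of 5.01 to 5.91 in CD11b+ libraries and of 6.498 and 6.53 in A+ cortex. A second set of 30 astrocyte genes, among them Aldoc and Clu, had median shares of 0.161% and 0.557%.

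**Figure D4:**
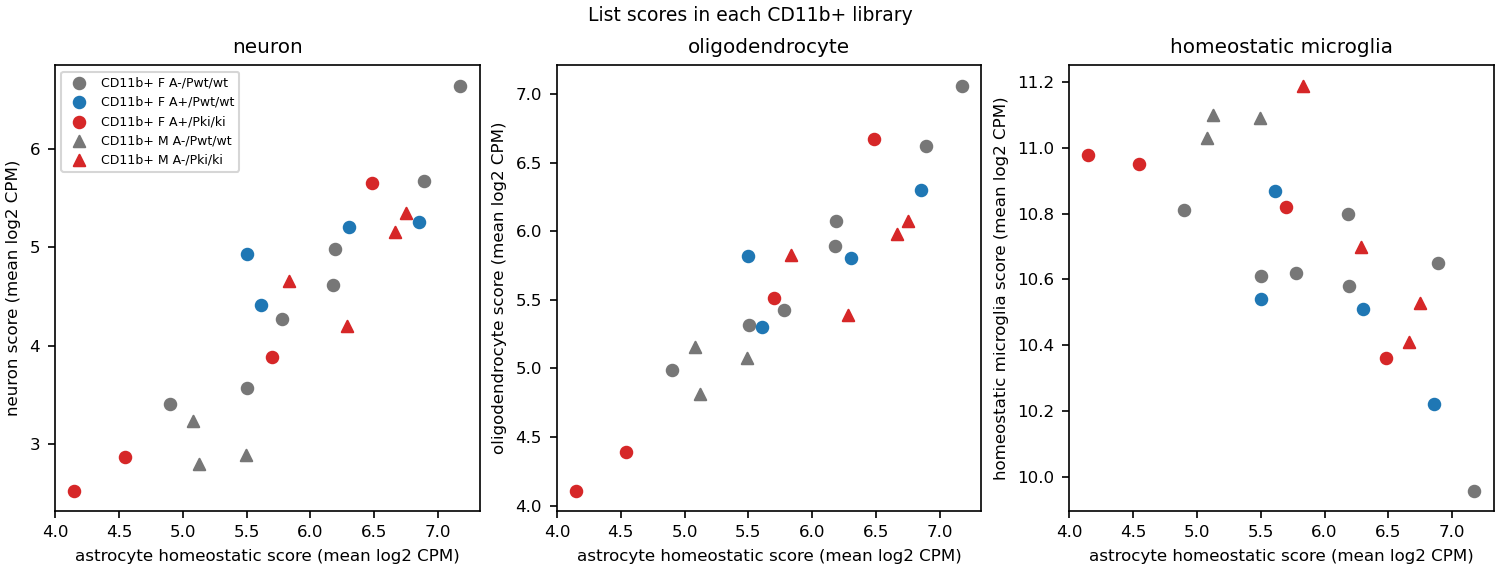
Score of the 31 astrocyte transcripts (horizontal axis, mean log2 CPM) against the scores of neuronal, oligodendrocyte and homeostatic microglial genes in each of the 22 CD11b+ libraries; circles are females and triangles males, which were scaled separately. The A-/Pwt/wt female 223 is furthest right and has the highest neuronal (6.64) and oligodendrocyte (7.06) and the lowest microglial (9.96) score.

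The first comparison asked whether the KI changed the astrocyte signal of A+ cortex. None of the 31 members was called in A+/Pki/ki against A+/Pwt/wt females by edgeR's quasi-likelihood test at an adjusted p of 0.05 (adjusted p from 0.9997), with 0% called among all 18640 genes. Before adjustment, 3 members had a p under 0.05, as did 2.76% of all genes. DESeq2's Wald test and limma also called 0 members, with 4 and 3 of them under 0.05 before adjustment. The log2 fold changes were small and precise, between -0.23 and 0.17 with SE of 0.061 to 0.13. They were above 0 for 27 of the 31 members (49.3% of all genes), with a median of 0.068 against -0.0018 over all genes. This count moved with single libraries. Without the A+/Pki/ki mouse 216 there were 21 above 0, with a median of 0.021. Without the A+/Pki/ki mouse 222 or the A+/Pwt/wt mouse 257 there were 29. The score differed by 0.058, within the SD of either group.

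Slc1a2 stood at 2069, 2261, 2633 and 2637 CPM in A+/Pwt/wt cortex and at 2196, 2387, 2651 and 2948 CPM in A+/Pki/ki cortex (log2 fold change 0.086 ± 0.11 SE). The 2 groups overlapped, as they did for Aldh1l1 (0.061 ± 0.065), Gja1 (0.076 ± 0.090) and Aqp4 (-0.040 ± 0.087). The Aqp4 difference turned to 0.0082 without the A+/Pki/ki mouse 222 and to 0.020 without the A+/Pwt/wt mouse 257. Of the other members, 4 had ranges that did not overlap, against 1.85% of all genes (0.944% higher, 0.901% lower). Ntsr2 was lower, at 122 to 137 CPM in A+/Pki/ki against 140 to 183 CPM in A+/Pwt/wt cortex (log2 fold change -0.23 ± 0.088). Ndrg2 (837 to 935 against 741 to 816 CPM), Glul (1476 to 1672 against 1230 to 1472 CPM) and Hepacam (102.0 to 110 against 90.3 to 101.8 CPM) were higher, with log2 fold changes of 0.16 ± 0.068, 0.17 ± 0.080 and 0.12 ± 0.061. The ranges of Glul and Hepacam all but met. Htra1, at 185 ± 15.9 against 164 ± 8.87 CPM (SD, n = 4 each), and Sox9, at 44.7 ± 2.96 against 49.7 ± 3.86 CPM (SD, n = 4 each), overlapped between the groups. None of these passed the adjustment over all genes. By role, the median log2 fold change was 0.081 for the 5 transmitter genes, 0.034 for the 9 channels and contact proteins, 0.070 for the 4 enzymes, 0.082 for the 6 receptor and signalling genes and 0.10 for the 6 secreted proteins.

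Other lists were read in the same cortex comparison. Endothelial genes had log2 fold changes above 0 for 15 of 15 (median 0.28), choroid plexus and ependymal genes for 10 of 10 (0.23) and mural genes for 8 of 11 (0.10), with 0 calls in each list. Neuronal genes were above 0 for 8 of 22 (-0.016). The part of vessel and ventricle cells in the astrocyte values was not tested. Of the second set of 30 astrocyte genes, 0 were called and 23 had log2 fold changes above 0, with a median of 0.074. Reactive astrocyte genes (20 genes, with Gfap and Serpina3n among them) had 0 calls, 11 values above 0 and a median of 0.022. Gfap, the intermediate filament of reactive astrocytes, stood at 931 CPM (722 to 1104) in A+/Pki/ki, at 886 CPM (623 to 1063) in A+/Pwt/wt and at 181 CPM in the 1 A-/Pwt/wt cortex. That A-/Pwt/wt library was the lowest of the 9 for 12 of the 31 homeostatic members and the highest for none. The 31 members took 1.17% of its counts, the lowest share of the 9 by a small margin. With 1 A-/Pwt/wt cortex library there is no replicate check of this difference and no test.

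The same question was put to the CD11b+ cells of A+ females. No member was called in A+/Pki/ki against A+/Pwt/wt CD11b+ libraries by edgeR (smallest adjusted p 0.853), DESeq2's Wald test or limma, where edgeR called 0% of 17039 genes. None had an unadjusted p under 0.05 with any of the 3 tools (3.37% of all genes with edgeR), and none had ranges that did not overlap (2.81% of all genes, 2.09% higher and 0.722% lower). The log2 fold change was below 0 for all 31 members, with a median of -0.70 against 0.0043 over all genes, of which 50.7% were above 0. The SE was 0.20 to 0.76, with a median of 0.58. The score was 0.85 lower in A+/Pki/ki libraries, less than the SD of that group (1.07) and more than the SD of A+/Pwt/wt libraries (0.63).

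Slc1a2 stood at 136, 224, 462 and 720 CPM in A+/Pki/ki libraries and at 373, 394, 701 and 875 CPM in A+/Pwt/wt libraries (log2 fold change -0.65 ± 0.53). Within each genotype the libraries thus spread more than the group means differed. Aqp4 stood at 10.6, 13.8, 39.9 and 57.2 CPM against 29.2, 37.7, 58.4 and 90.9 CPM (-0.88 ± 0.59), Gja1 at 11.5 to 70.2 against 30.4 to 87.8 CPM (-0.65 ± 0.57) and Aldh1l1 at 6.52 to 35.2 against 18.4 to 42.4 CPM (-0.68 ± 0.55). For all 4 genes the 2 lowest values of the 8 were those of the A+/Pki/ki females 394 and 405. The members with the lowest unadjusted p were Dio2 (-0.80 ± 0.48), Sox9 (-0.89 ± 0.54), Gjb6 (-0.997 ± 0.61), Atp1b2 (-0.82 ± 0.55), Kcnj10 (-0.69 ± 0.46) and Htra1 (-0.82 ± 0.57). Glul, with 1439 ± 246 against 1414 ± 244 CPM (SD, n = 4 each), differed by -0.033 ± 0.20.

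Single libraries moved these values. Without the A+/Pki/ki female 335, whose astrocyte score of 6.48 exceeded that of 3 of the 4 A+/Pwt/wt females, 26 of the 31 members had an unadjusted p under 0.05 and the median log2 fold change was -1.29, while 0 passed the adjustment. The share of all genes with a p under 0.05 in that smaller fit was not taken, so the 26 have no background. Without the A+/Pwt/wt female 331 the median was -0.36. In the same comparison the medians were -0.82 for neuronal, -0.30 for oligodendrocyte, -0.46 for endothelial and 0.20 for homeostatic microglial genes, with 0 calls in each list. Mitochondrial genes took 19.4% of counts in female 335, 3.77% in female 394 and 3.45% in female 405, and up to 16.7% in A+/Pwt/wt females. The part of these differences in the astrocyte values was not tested.

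For the transgene alone, A+/Pwt/wt and A-/Pwt/wt CD11b+ females were compared. No member was called by edgeR (smallest adjusted p 0.653), DESeq2's Wald test or limma, where edgeR called 1.29% of 17355 genes (1.01% higher, 0.282% lower). Unadjusted p-values under 0.05 were had by 0 members with each of the 3 tools, against 10.1% of all genes with edgeR. No member had ranges that did not overlap, against 3.35% of all genes (1.95% higher, 1.39% lower). The log2 fold changes lay between -0.48 and 0.43, with 11 of 31 above 0 (44.5% of all genes) and a median of -0.085 against -0.034 over all genes. Without the A-/Pwt/wt female 223 there were 24 above 0 and the median was 0.11, and without the A+/Pwt/wt female 331 it was -0.46. Slc1a2 had a lowest, median and highest value of 215, 431 and 1357 CPM in the 7 A-/Pwt/wt libraries and stood at 373, 394, 701 and 875 CPM in A+/Pwt/wt, so that one group lay inside the other (log2 fold change 0.080 ± 0.43). Aldh1l1 differed by -0.018 ± 0.40, Gja1 by -0.20 ± 0.45 and Aqp4 by 0.43 ± 0.45. The members with the lowest unadjusted p were Glul (-0.30 ± 0.18), Mfge8 (-0.27 ± 0.18), Htra1 (-0.48 ± 0.39), Fgfr3 (-0.37 ± 0.35), Slc7a10 (-0.37 ± 0.40) and Dio2 (0.35 ± 0.44). In the names of their count columns the A+/Pwt/wt females carry the batch tag b2 and the A-/Pwt/wt females b3, so batch and transgene cannot be told apart here. The tags do not differ within the KI comparisons.

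The KI was last compared in A- males. Of the 31 members, 27 were called in A-/Pki/ki against A-/Pwt/wt CD11b+ libraries by edgeR, all higher with the KI and none lower, where 16.4% of 16373 genes were called (11.1% higher, 5.26% lower). All 31 log2 fold changes were above 0 (49.8% of all genes), with a median of 1.18 against -0.0012 over all genes. DESeq2's Wald test called 28 and limma 26. With edgeR 30 had an unadjusted p under 0.05, against 33.3% of all genes. The score was 1.15 higher in A-/Pki/ki libraries, at 5.83, 6.28, 6.66 and 6.75 against 5.08, 5.12 and 5.49 in A-/Pwt/wt. The lowest A-/Pki/ki library, from mouse 104, thus stood above the highest A-/Pwt/wt library. All 9 channels and contact proteins and all 4 enzymes were called, with 5 of 6 secreted proteins, 5 of 6 receptor and signalling genes, Sox9 and 3 of 5 transmitter genes. Of the 24 members whose exons overlap no other annotated gene, 22 were called.

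Slc1a2 stood at 330, 489, 880 and 912 CPM in A-/Pki/ki and at 202, 222 and 258 CPM in A-/Pwt/wt libraries (log2 fold change 1.52 ± 0.33, edgeR adjusted p = 0.0159). Aldh1l1 stood at 22.8, 33.7, 38.7 and 42.0 CPM against 14.4, 15.98 and 16.1 CPM (1.15 ± 0.20, edgeR adjusted p = 0.00700). Aqp4 stood at 23.2, 38.8, 49.0 and 50.8 CPM against 15.9, 16.9 and 22.1 CPM (1.14 ± 0.26, edgeR adjusted p = 0.0179). In each of the 3 genes every A-/Pki/ki library was above every A-/Pwt/wt library, and the gap was narrowest for Aqp4. Gja1, at 36.9 to 76.6 against 19.3 to 30.6 CPM, rose by 1.26 ± 0.25 (edgeR adjusted p = 0.0116). In total, 26 of the 31 members had ranges that did not overlap, all higher, against 15.4% of all genes with higher and 15.4% with lower ranges.

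The largest change and the lowest p belonged to Timp4, at 21.7, 23.2, 27.5 and 34.2 CPM against 6.93, 8.32 and 8.57 CPM (log2 fold change 1.74 ± 0.18, edgeR adjusted p = 0.00374). Its exons overlap those of Syn2, a neuronal gene on the other strand. The counting did not use strand, so strand could not separate reads on the shared bases. The part of such reads in the Timp4 values was not tested. Cpe followed, at 519, 534, 839 and 1243 CPM against 221, 241 and 286 CPM (1.65 ± 0.30, edgeR adjusted p = 0.00858). Mlc1 (1.60 ± 0.28), Gpr37l1 (1.55 ± 0.21), Ntsr2 (1.49 ± 0.29), Ndrg2 (1.44 ± 0.21) and Acsbg1 (1.42 ± 0.23) rose by similar amounts. Hepacam (1.29 ± 0.21), Htra1 (1.23 ± 0.15) and Gjb6 (1.21 ± 0.20) were somewhat lower. The edgeR adjusted p-values of these 8 lay between 0.00374 and 0.0112.

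Glul again stood apart. It was at 1710, 1774, 2001 and 2013 CPM in A-/Pki/ki and at 1443, 1677 and 1713 CPM in A-/Pwt/wt libraries, which overlap, and its log2 fold change of 0.22 ± 0.15 was not called (edgeR adjusted p = 0.336). The other members that were not called were Chrdl1 (1.65 ± 0.52), F3 (0.61 ± 0.23) and Slc7a10 (0.68 ± 0.27). The second set of astrocyte genes had 26 of 29 tested genes called higher, with a median of 1.14. Reactive astrocyte genes had 3 called higher and 1 lower of 17 tested, with a median of 0.50.

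Markers of other cells moved in the same male libraries. All 22 neuronal genes were called higher, with a median log2 fold change of 2.08, and their score was 4.20 to 5.35 in A-/Pki/ki against 2.80 to 3.24 in A-/Pwt/wt libraries. Oligodendrocyte genes had 9 of 15 tested called higher (median 1.04, score 5.39 to 6.07 against 4.81 to 5.15), endothelial genes 5 of 15 (median 0.74) and oligodendrocyte precursor genes 4 of 9 (median 1.18). The 20 homeostatic microglial genes had log2 fold changes below 0 throughout, with a median of -0.33 and 1 called lower. Their score was not lower in every A-/Pki/ki male. In male 104 it was 11.19, against 11.03 to 11.1 in A-/Pwt/wt males and 10.41 to 10.7 in the other A-/Pki/ki males. The astrocyte (5.83) and neuronal (4.66) scores of male 104 were still above those of all A-/Pwt/wt males. Mitochondrial genes took 7.40% to 12.8% of counts in A-/Pki/ki and 3.97% to 5.02% in A-/Pwt/wt males. The part of these in the astrocyte values was not tested. Leaving out the A-/Pwt/wt male 101 lowered the number of members called to 17, and leaving out the A-/Pwt/wt male 102 lowered it to 13, with log2 fold changes above 0 for all 31 in both. How the share of all genes called changed in these smaller fits was not taken. Slc1a2 and Aqp4 were not called without male 102 (edgeR adjusted p = 0.0681 and 0.0689), nor was Aqp4 without male 101 (0.0575).

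**Figure D5:**
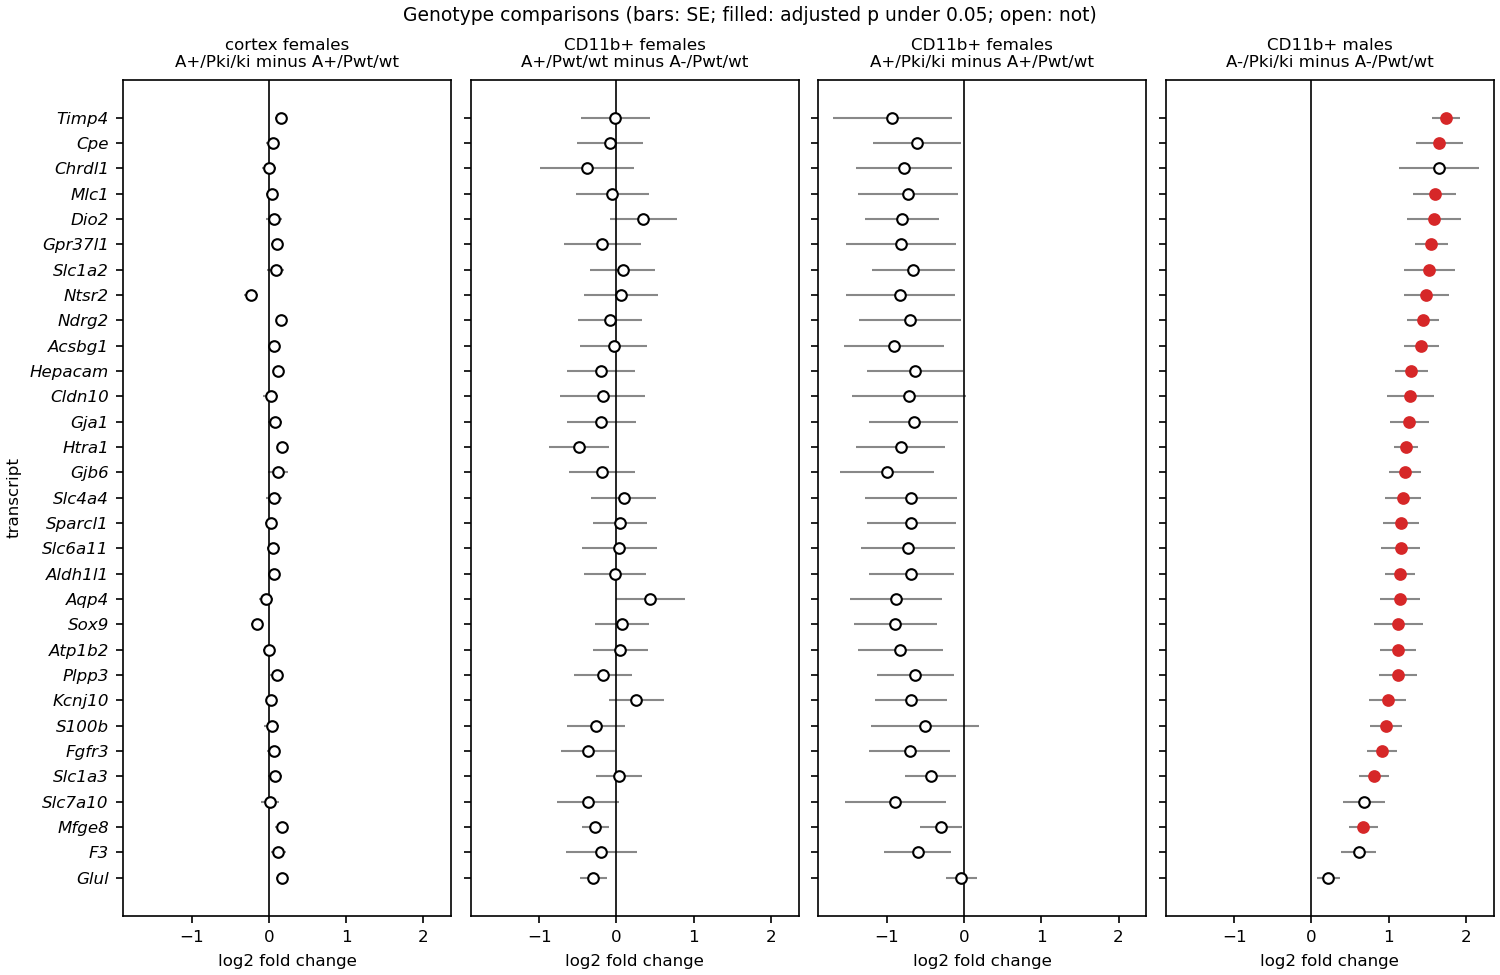
Log2 fold changes of the 31 transcripts in 4 genotype comparisons (points, with SE as bars); filled points have an edgeR adjusted p under 0.05 over all genes tested. In CD11b+ males 27 points are filled and all lie right of 0, in CD11b+ A+ females all 31 lie left of 0 with none filled, and in cortex all lie between -0.23 and 0.17.

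The KI difference had opposite signs in A- males and A+ females for all 31 members, and the difference between the differences was tested directly, as an interaction. No member was called by edgeR (adjusted p from 0.143, where 0% of 17619 genes were called), although 28 had an unadjusted p under 0.05 (26.5% of all genes). The interaction was above 0 for all 31, against 51% of all genes, with a median of 1.96 against 0.014 over all genes and SE of 0.25 to 0.91. Among the markers it was 2.19 ± 0.70 for Slc1a2, 1.85 ± 0.66 for Aldh1l1, 1.93 ± 0.71 for Gja1 and 2.04 ± 0.73 for Aqp4. The lowest unadjusted p-values were those of Dio2 (2.40 ± 0.66), Cpe (2.27 ± 0.73), Gjb6 (2.23 ± 0.72), Htra1 (2.07 ± 0.68), Slc1a3 (1.26 ± 0.42) and Acsbg1 (2.35 ± 0.78). Glul had the smallest interaction of the members (0.28 ± 0.25). Other lists shared the sign. The interaction was above 0 for 22 of 22 neuronal genes (median 2.90) and 30 of 30 genes of the second astrocyte set (1.82). It was above 0 for 15 of 15 endothelial (1.19) and 14 of 15 tested oligodendrocyte genes (1.405). Homeostatic microglial genes had 0 of 20 above 0 (-0.51) and border macrophage genes 2 of 10 (-0.20). Of the 31 members, DESeq2's Wald test called 8, and edgeR called 29 once the A+/Pki/ki female 335 was left out. The share of all genes called in these alternative fits was not taken, so the counts have no background. Sex, transgene and batch tag (b1 in males, b2 in A+ females) differ together between these groups and cannot be told apart.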

How the data were processed

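The authors deposited raw counts per gene for 31 libraries in 3 tables (cortex, CD11b+ females, CD11b+ males). Per the labels and the submitters' processing notes they trimmed reads with Trimmomatic (0.39), checked them with FastQC (0.11.7), aligned them with STAR (2.7.9a) to GRCm38 and counted unique primary alignments without strand with featureCounts (2.12.0) in R (4.2.2). The study's methods name further versions of R and featureCounts beside these. They also deposited normalized values from DESeq2's variance-stabilizing transformation, which are on a log2 scale and hold 19287, 18166 and 16373 genes.

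Counts were tested with edgeR 4.0.16 in R 4.3.3 (quasi-likelihood test, two-sided, TMM, a minimum of 10 counts in 3 or more fitted libraries, Benjamini-Hochberg over all genes tested, adjusted p of 0.05), with only the compared groups in the fit. All 31 members passed this filter in every comparison. DESeq2 1.42.0 and limma 3.58.1 (on the deposited log2 values) were alternatives. Levels are CPM scaled within a table, and scores use a prior count of 2. Ratios between tissues and shares use library totals without TMM. The edgeR fits were tried on simulated counts. Each gene was drawn independently there, so lists that rise and fall together between libraries were not covered.

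The members, lists and tests were chosen with earlier results of these data known, so counts over the list are a description. In every comparison Slc1a2, Aldh1l1, Gja1 and Aqp4 are given, with the 6 other members of lowest unadjusted p (10 where at least 10 members were called), and further members were named after their values were seen. Each library is 1 mouse by its label, so p-values measure the spread between mice. Gene lengths and exon overlaps come from Gencode vM21 on GRCm38. Of the 31 members, 7 overlap exons of another gene, namely Slc1a2, Aldh1l1, Glul, Slc7a10, Fgfr3, Timp4 and Dio2.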

Additional observations from a re-analysis of the deposited data

Results flagged for a closer look

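Within groups of 4 to 10 libraries, the library furthest from the others was set against Dixon's 95% limit, for each member and for the score. Of 192 such groups 10 were past it, and chance gives about 1 in 20. In A+/Pwt/wt cortex, mouse 257 was high for Mfge8 (220 CPM, others 184 to 187), Kcnj10 (184 CPM, others 170 to 172) and the astrocyte score (7.43, others 7.31 to 7.32), and mouse 329 was low for S100b (135 CPM, others 171 to 178). In A+/Pki/ki cortex, mouse 216 was high for Slc6a11 (183 CPM, others 149 to 154), Hepacam (109.5 CPM, others 102 to 103) and Cldn10 (30.9 CPM, others 25.7 to 26.3). In CD11b+ libraries, the A-/Pwt/wt female 223 was high for Slc1a2 (1357 CPM, others 215 to 691) and Chrdl1 (7.28 CPM, others 0.685 to 3.35), and the A-/Pki/ki male 104 was low for Chrdl1 (1.27 CPM, others 2.91 to 3.04). Female 223 also had the highest mitochondrial share (24.5%) and the highest neuronal score (6.64), and the part of these in its astrocyte values was not tested.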

How the results depend on the processing

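No paired analysis was possible because replicate numbers are mouse numbers, and the groups compared share none. In cortex and in both comparisons of CD11b+ females, the number of members called was 0 under every scaling, filter and tool and without each library. In males it was 26 to 30 over the scalings, filters and tools, and 13 to 30 with 1 library left out. For the interaction it was 8 with DESeq2's Wald test, and 0 to 29 with 1 library left out. Shares of all genes called were not taken for the alternative fits, so their counts of members have no background. The score difference kept its sign with 1 library left out in cortex (0.021 to 0.089), in A+/Pki/ki against A+/Pwt/wt females (-1.27 to -0.49) and in males (1.03 to 1.33). Between A+/Pwt/wt and A-/Pwt/wt females it had no settled sign (-0.28 to 0.17). Signs turned only for values within their SE. Aqp4 in cortex ran from -0.082 to 0.020 with 1 library left out. Between A+/Pwt/wt and A-/Pwt/wt females the ranges were -0.20 to 0.45 for Slc1a2, -0.35 to 0.16 for Aldh1l1 and -0.52 to 0.11 for Gja1. Slc1a2 turned to -0.060 (mouse 242), -0.018 (mouse 245), -0.20 (mouse 331) and -0.034 (mouse 375), Aldh1l1 to 0.13 (mouse 223), 0.16 (mouse 236), 0.13 (mouse 367) and 0.093 (mouse 380), and Gja1 to 0.11 (mouse 223). Aldh1l1 was 0.0086 with no filter on low counts and 0.084 with limma. The causes were not tested. The median SE of the members, 0.58 for the KI and 0.43 for the transgene in CD11b+ females, limits what could be seen there.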
